A study of Mus musculus with 6 samples.

Results

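The hedgehog pathway genes described here are Gli1, Gli2, Gli3, Ptch1, Hhip, Smo, Sufu, Shh and Foxf1, 9 genes chosen by name from the 19060 genes of the deposited count table for mouse incisor. All 9 had enough counts to be tested. Bulk RNA was sequenced from the proximal end of the incisor, the growing end that holds the stem cells, in 3 control and 3 mutant samples. Control mice were Fgfr1fl/fl, with loxP sites flanking both copies of the FGF receptor gene Fgfr1, and carried no Cre (their labels read wild type). Mutant mice were Gli1CreER;Fgfr1fl/fl (Gli1-Cre;Fgfr1fl/fl in the labels), so that tamoxifen activates Cre in Gli1+ cells and removes Fgfr1 there. Both groups received tamoxifen at 1 month of age, and incisors were taken 1 week later. The driver is inserted at the Gli1 locus and disrupts that copy of the gene, so the mutant group carries a changed Gli1 allele that the control group lacks, and Cre acts only in cells that use the Gli1 locus.

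Hedgehog ligands such as Shh are secreted and bind the receptor Ptch1, which otherwise holds the membrane protein Smo inactive. Active Smo, at the primary cilium, releases the transcription factors Gli2 and Gli3 from Sufu and from their processing into repressors, and they then switch on Gli1, Ptch1 and Hhip, so that the level of these targets is commonly read as pathway activity. In the adult mouse incisor, Shh is made by the dental epithelium and supplied by the sensory nerve, and Gli1 marks the mesenchymal stem cells near the neurovascular bundle.

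Of the 9 genes, Sufu, Smo and Ptch1 were lower in every mutant sample than in every control sample, and these 3 passed the threshold that the study used, an unadjusted p under 0.05 with over 1.5-fold change. Sufu showed the largest difference of the 9, at 26.5% of its control level. Smo was at 59.8% and Ptch1 at 60.5%. With transcript length and GC content corrected for, Sufu alone was past the threshold. None of the 9 was higher past that threshold, and in Shh, Hhip, Foxf1 and the 3 Gli genes the groups overlapped. The background was large: 8.92% of the 15826 genes tested were lower and 10.9% were higher past the same threshold, and 16.3% of all tested genes were lower and 14.1% higher with no overlap between the groups. With Benjamini-Hochberg adjustment over all genes tested, only Sufu of the 9 stayed under 0.05, against 3.06% of all genes in that direction. All p-values for single genes below come from edgeR's quasi-likelihood test, two-sided, unless DESeq2 is named. They set the difference between the groups against the spread between samples of a group.

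Because Sufu, Smo and Ptch1 carry these differences, the 250 bases upstream of their start sites are given here from RefSeq, on GRCm38.p6, each read 5′ to 3′ on the strand of its gene. Capitals mark the GC box GGGCGG or its reverse complement CCGCCC, a motif of many promoters. The Ptch1 window precedes the start site at position 63565735, which is 1 of several in its gene, and lies inside the transcripts that start farther upstream.

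Sufu (chr19:46396646-46396895, plus strand): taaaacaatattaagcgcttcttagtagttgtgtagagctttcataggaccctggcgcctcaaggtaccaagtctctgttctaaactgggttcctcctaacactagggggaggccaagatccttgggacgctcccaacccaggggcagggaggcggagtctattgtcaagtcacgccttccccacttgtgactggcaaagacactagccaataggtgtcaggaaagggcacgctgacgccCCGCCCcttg

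Smo (chr6:29735247-29735496, plus strand): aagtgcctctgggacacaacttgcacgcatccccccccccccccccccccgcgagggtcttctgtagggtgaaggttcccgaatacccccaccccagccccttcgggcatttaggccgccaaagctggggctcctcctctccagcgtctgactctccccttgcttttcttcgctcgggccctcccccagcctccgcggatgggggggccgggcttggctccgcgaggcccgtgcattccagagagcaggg

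Ptch1 (chr13:63565736-63565985, minus strand): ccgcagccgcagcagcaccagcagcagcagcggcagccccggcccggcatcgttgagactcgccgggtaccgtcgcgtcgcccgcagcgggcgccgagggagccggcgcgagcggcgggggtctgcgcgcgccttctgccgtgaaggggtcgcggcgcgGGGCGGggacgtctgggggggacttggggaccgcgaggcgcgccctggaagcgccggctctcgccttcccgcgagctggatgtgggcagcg

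The GLI consensus GACCACCCA, the site that Gli factors bind, was searched on both strands in these windows and matched in none of the 3. It was present in 0.225% of all 32851 promoter windows of that length. The GC box was present in Sufu and Ptch1 and not in Smo, against 32.7% of all windows. The CCAAT box, searched as CCAAT on both strands, was found in Sufu only, against 33.8% of all windows. The windows also differed in base composition, with 54.0% GC in Sufu, 68.4% in Smo and 78.4% in Ptch1. Of the other 6 genes, Gli2, Gli3 and Hhip had a window in the same table, and the GLI consensus was not in those windows either.

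The mutant libraries were shallower than the control libraries. Control totals ran from 31060222 to 32712448 counts and mutant totals from 5276557 to 11819576. Levels are given as CPM, the counts of a gene scaled to a common library size by each sample's upper quartile. Fgfr1, the targeted gene, ran from 434 to 924 CPM in control and from 148 to 318 CPM in mutant samples, with a log2 fold change of -1.37 (standard error 0.40, adjusted p = 0.0881). The ameloblast genes Amelx, Ambn and 5 others, which mark enamel-forming epithelium, summed to between 85940 and 120400 CPM in control and between 34720 and 74830 CPM in mutant samples, a sum that Amelx and Ambn dominate. None of the 7 was lower past the study's threshold, and Amtn and Odam, enamel genes of later stages, were higher. With transcript length and GC content corrected for, 4 of the 7 were lower and none was higher past that threshold. The 12 dental mesenchyme genes summed to between 657 and 870 CPM in control and between 717 and 849 CPM in mutant samples. The 7 erythroid genes measured summed to 380 to 834 CPM in control and 926 to 2560 CPM in mutant samples. Of the 6 tested, 2 were higher and 1 was lower past that threshold, and with the same correction 1 was lower and none was higher. The part of these differences in tissue content in the values below was not tested. The 8 skeletal muscle genes were highest in mutant 1 (4330 CPM) and control 2 (2394 CPM), and at 7.78 CPM were lowest in control 1. Samples of bulk tissue cannot tell fewer cells of a type from less RNA per cell.

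The levels of the 9 genes were compared with each other per kilobase of their longest annotated transcript. In control samples, Smo had the highest mean, 65.3 ± 12.2 CPM per kilobase (SD, n = 3), followed by Shh (43.2 ± 20.6), Ptch1 (33.1 ± 6.89) and Foxf1 (31.5 ± 8.17). The ranges of neighbours among these 4 overlapped, so their order was within the spread between samples. A gap without overlap separated Foxf1 from Sufu (6.94 ± 1.97), Gli1 (6.56 ± 1.46), Gli3 (6.06 ± 1.89) and Gli2 (4.87 ± 1.46), whose neighbouring ranges overlapped again. Hhip was lowest, at 1.90 ± 0.31, without overlap with Gli2. Smo, Shh, Ptch1 and Foxf1 were therefore at a higher level per length than the 3 Gli genes in control tissue. In mutant samples the order of the upper genes was Shh, Smo, Foxf1 and Ptch1, and Sufu had moved from the fifth place to the last, at 1.82 ± 0.71 CPM per kilobase, with a range that overlapped that of Hhip (3.02 ± 1.16).

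**Figure D1:**
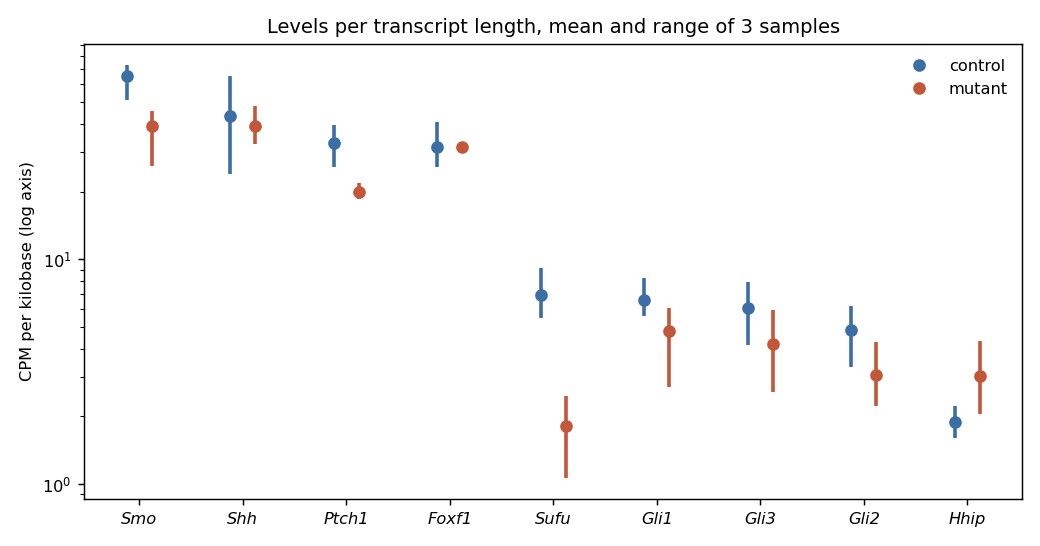
Level of each gene in CPM per kilobase of its longest transcript (log axis), with the mean as a point and the range of 3 samples as a bar, for control and mutant samples. Sufu falls from a control mean of 6.94 to a mutant mean of 1.82, while Foxf1 has means of 31.5 and 31.7.

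Shh, the ligand, lies at chr5:28456815-28467256 on the minus strand. It measured 68.5, 115 and 185 CPM in control samples 1, 2 and 3, and 138, 92.4 and 104 CPM in mutant samples 1, 2 and 3. The control samples spanned the whole range of the mutant samples, and control 3 was the highest of the 6. The log2 fold change was -0.15 (standard error 0.37, adjusted p = 0.886), and without control 3 it turned to 0.28 with an unadjusted p of 0.450. The 12 dental epithelium genes also summed highest in control 3, at 5560 CPM, against 2924 to 3547 CPM in the other 5 samples. Whether the amount of epithelium bears on the Shh values was not tested.

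Ptch1, the receptor and a target of the pathway, lies at chr13:63508328-63573598 on the minus strand. It measured 199, 261 and 305 CPM in controls and 169, 152 and 142 CPM in mutants. The lowest control sample lay above the highest mutant sample, and the 3 mutant samples differed little among themselves. The mean was 255 ± 53.3 CPM in control and 154 ± 13.3 CPM in mutant samples (SD, n = 3). Ptch1 fell by 0.73 on the log2 scale (standard error 0.25, unadjusted p = 0.0178, adjusted p = 0.137). Without control 3, mutant 2 or mutant 3 the unadjusted p was 0.0819, 0.0505 or 0.0610, and the change was -0.58, -0.73 or -0.68.

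Hhip, a membrane protein that binds and sequesters the ligand, lies at chr8:79965851-80058006 on the minus strand. It measured 14.6, 20.1 and 16.9 CPM in controls and 24.7, 18.5 and 39.1 CPM in mutants. Mutant samples 1 and 3 were above every control sample, and mutant 2 was within the control range. Its log2 fold change was 0.67 (standard error 0.39, adjusted p = 0.397). Hhip was the only one of the 9 besides Foxf1 with a log2 fold change above 0, and it did not pass the test.

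Smo, the signal transducer that Ptch1 restrains, lies at chr6:29735503-29761365 on the plus strand. It measured 269, 194 and 277 CPM in controls and 97.8, 171 and 173 CPM in mutants. The groups did not overlap, although control 2 and the upper mutant samples lay close together, and mutant 1 was far below the other two. The mean was 247 ± 46.0 CPM in control and 147 ± 42.8 CPM in mutant samples (SD, n = 3). Smo fell by 0.74 on the log2 scale (standard error 0.30, unadjusted p = 0.0366, adjusted p = 0.209). Without control 1, control 3 or mutant 1 the unadjusted p was 0.0873, 0.109 or 0.104, and the change was -0.68, -0.65 or -0.54.

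Sufu, which holds Gli proteins in the cytoplasm and is needed to form the Gli3 repressor, lies at chr19:46396896-46488804 on the plus strand. It measured 24.9, 41.5 and 27.7 CPM in controls and 4.80, 11.2 and 8.67 CPM in mutants. Every mutant sample was below 12 CPM and every control sample above 24 CPM. These levels rest on 855, 1510 and 958 counts in controls and on 22, 131 and 86 counts in mutants. Sufu fell by 1.92 on the log2 scale (standard error 0.45, unadjusted p = 0.00255, adjusted p = 0.0464). It was past the study's threshold, which is unadjusted, under all 14 alternative settings, with log2 fold changes from -2.22 to -1.28. The adjusted p was under 0.05 in 3 of these 14. Its adjusted p was 0.131, 0.217 and 0.190 without control 1, 2 and 3, and 0.0522, 0.0576 and 0.0704 without mutant 1, 2 and 3. With control counts thinned to the mutants' mean depth, its log2 fold change was -1.91 (adjusted p = 0.065).

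Gli1, the transcription factor whose locus drives Cre in the mutant mice, lies at chr10:127329882-127341974 on the minus strand. It measured 22.6, 23.8 and 33.4 CPM in controls and 10.9, 24.6 and 22.8 CPM in mutants. Mutant 1 was the only sample below 20 CPM, and the other two mutant samples lay within the control range. The log2 fold change was -0.45 (standard error 0.41, adjusted p = 0.628). The disrupted Gli1 copy and the loss of Fgfr1 go together in the mutant mice. Their effects on Gli1, or on any other gene compared here, cannot be told apart. The Gli1 gene overlaps Arhgap9 at 1 end, which had at most 2.80 CPM in any sample.

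Gli2, the main activator downstream of Smo, lies at chr1:118834132-119053619 on the minus strand. It measured 21.9, 41.2 and 33.8 CPM in controls and 28.4, 17.6 and 14.8 CPM in mutants. Mutant 1 lay among the control samples, and the other two lay below them. Its log2 fold change was -0.68 (standard error 0.39, adjusted p = 0.395). Without mutant 1 it was -1.01, past the threshold (unadjusted p = 0.0236, adjusted p = 0.118).

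Gli3, the main source of the Gli repressor, lies at chr13:15463235-15730026 on the plus strand. It measured 33.9, 64.9 and 49.6 CPM in controls and 20.9, 48.7 and 33.3 CPM in mutants. The groups overlapped, with the mutant 2 value close to that of control 3. Its log2 fold change was -0.52 (standard error 0.38, adjusted p = 0.522).

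Foxf1, a forkhead transcription factor of mesenchyme and a hedgehog target in several organs, lies at chr8:121084386-121088144 on the plus strand. It measured 98.6, 67.0 and 62.3 CPM in controls and 74.0, 79.2 and 76.6 CPM in mutants. The 3 mutant values lay close together inside the control range. The log2 fold change was 0.01 (standard error 0.24, adjusted p = 0.986), so a change of the size measured for Smo or Ptch1 was about 3 standard errors away. Its sign changed with the scaling.

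**Figure D2:**
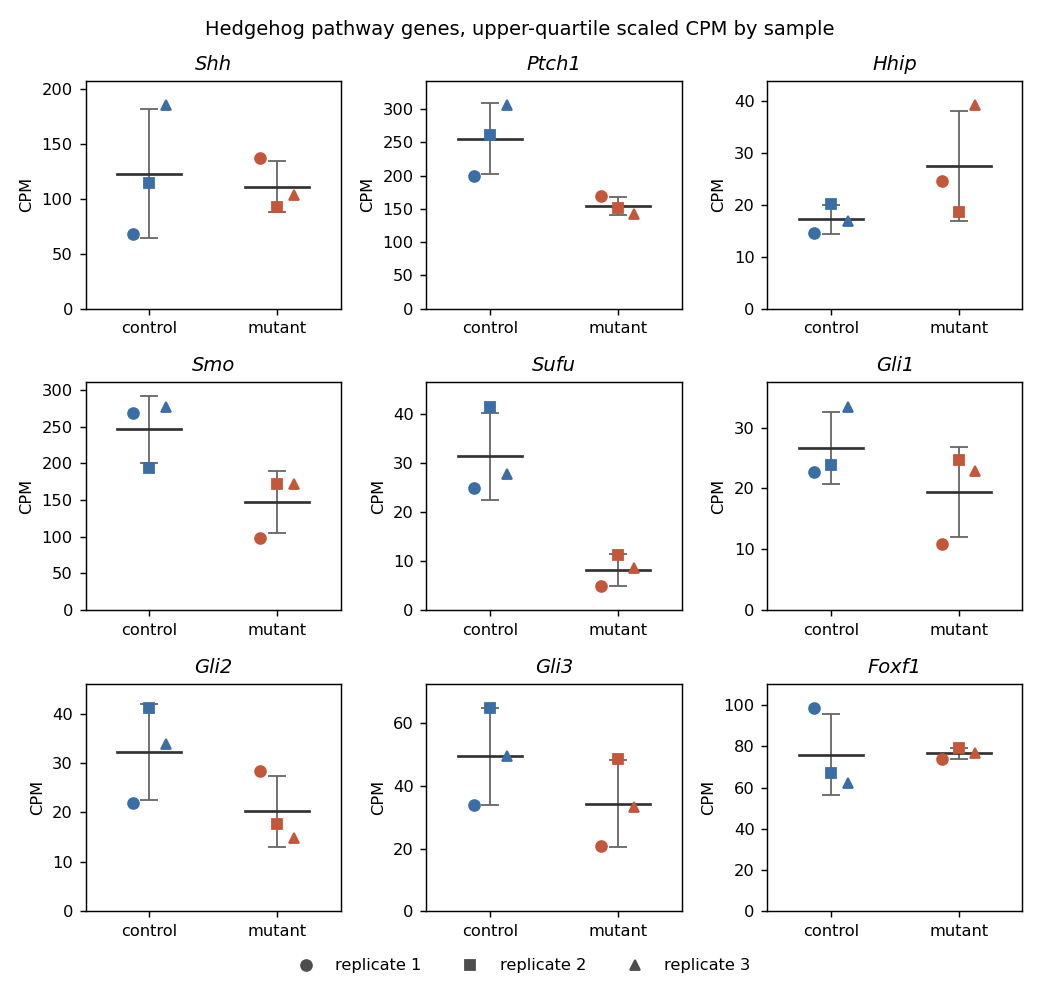
Upper-quartile scaled CPM (linear axes from 0) of each gene in the 3 control and 3 mutant samples, with 1 symbol per replicate, the mean as a horizontal line and the SD as a bar. Control and mutant points are separate in Ptch1 (199 to 305 against 142 to 169 CPM), Smo (194 to 277 against 97.8 to 173 CPM) and Sufu (24.9 to 41.5 against 4.80 to 11.2 CPM), and they overlap in the other 6 genes.

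Ratios between genes of the same sample do not depend on how samples are scaled. Gli1 held 28.8, 18.3 and 28.6% of the counts of the 3 Gli genes in controls and 18.1, 27.1 and 32.1% in mutants. The group means were 25.2 and 25.8%, with an exact permutation test p of 1.00 (two-sided, n = 3 per group). The shares overlapped, with an SD of 5.98 percentage points in control and 7.10 in mutant samples. The ratio of Ptch1 to Smo counts was 0.742, 1.35 and 1.10 in controls and 1.73, 0.887 and 0.825 in mutants. The groups overlapped, with an exact permutation p of 0.900 (two-sided, n = 3 per group). After adjustment over these 2 ratios both p-values were 1.00, and 3 samples against 3 cannot give a p below 0.1.

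The median log2 fold change of the 9 genes was -0.52, and 7 of the 9 were negative. Over all genes tested the median was -0.04, and 8204 of 15826 were negative. The 9 genes have long transcripts, from 2415 to 9074 bases, and the 8619 protein-coding genes tested with transcripts in that range had a median of -0.25. Of these 8619 genes, 5410 were negative. In that range 931 genes were lower and 383 were higher past the study's threshold, and 615 lay wholly above and 1757 wholly below the controls. When each sample was corrected for its trend over GC content and transcript length, the median of the 9 genes moved to 0.16. Sufu was then the only one of them past the threshold, at -1.28 (unadjusted p = 0.00727, adjusted p = 0.106). Ptch1 moved to -0.36 (unadjusted p = 0.203) and Smo to -0.08 (unadjusted p = 0.790). Gli1, Gli2 and Shh turned from negative to 0.30, 0.17 and 0.16, and Gli3 stayed negative at -0.29. Fgfr1, the targeted gene, moved to -0.73.

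**Figure D3:**
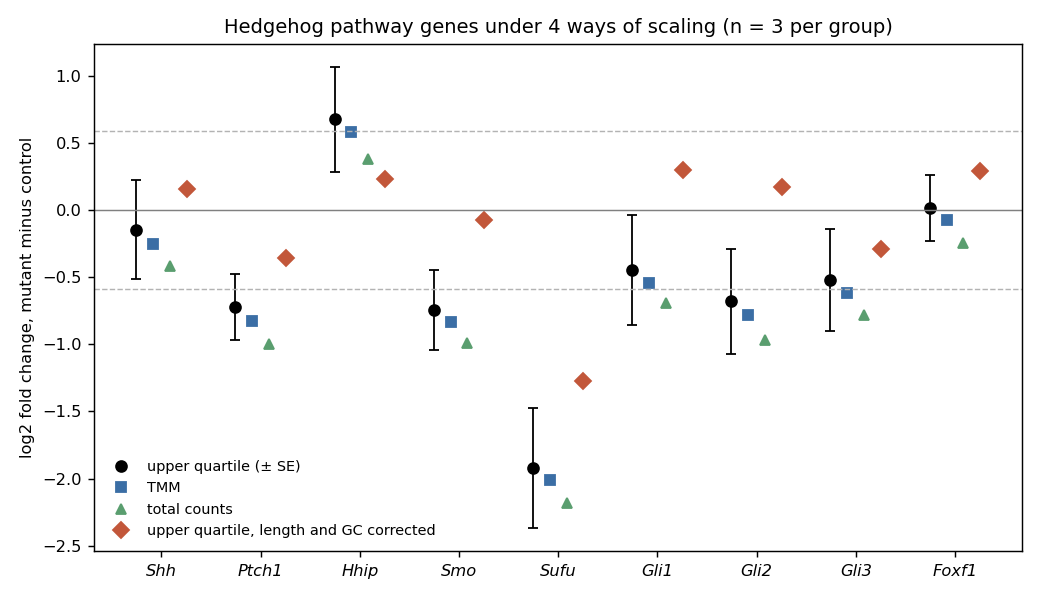
Log2 fold change, mutant minus control, of the 9 genes after upper-quartile scaling (black points, with standard errors), TMM scaling, total counts only, and upper-quartile scaling with length and GC content corrected; dashed lines mark 1.5-fold. Sufu stays below -1.2 in all 4, while Smo runs from -0.99 with total counts to -0.08 with the correction.

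The rest of the pathway was covered by 70 other genes listed by role, of which 67 were in the table and 66 were tested. Of these, 9 were lower and 2 were higher past the study's threshold. A negative log2 fold change was found in 51 of 66, against 8204 of all 15826 genes tested. The median of the 66 was -0.40, and -0.04 after the length and GC correction, when 6 were lower and 2 were higher. The 2 higher genes were Cul3 and Bmi1 before that correction, and Evc2 and Bcl2 after it. Over all 15826 genes, 1170 were lower and 1111 were higher after that correction. As shares of those tested, the 9 lower genes stood against 8.92% and the 2 higher genes against 10.9% of all genes. The counts given for each role below stand against the same shares.

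Among the 13 genes for ligands, their release and their co-receptors that were tested, only Dhh passed. Dhh, the hedgehog ligand of Schwann cells, had 48, 54 and 28 counts in controls (1.40, 1.48 and 0.809 CPM) and 0 counts in every mutant sample. Allowing 3 counts in each mutant library, a mean of 0.404 CPM, its level was at least 3.04-fold lower (adjusted p = 0.0464). Of the 1108 tested genes with a control mean between 1 and 2 CPM, 12.8% were likewise at 0 in all 3 mutant samples. Of the 10 nerve and Schwann cell genes in the table, 3 were at 0 in every mutant sample, and their summed level was 35.5 to 56.3 CPM in control and 32.5 to 99.5 CPM in mutant samples. The part of nerve content and depth in the Dhh values was not tested. In the fit with control counts thinned to the mutants' mean depth, Dhh was not among the genes tested.

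The co-receptors that present the ligand to Ptch1 did not pass the test. Gas1 measured 80.8, 101 and 54.4 CPM in controls and 68.5, 65.1 and 79.6 CPM in mutants, with a log2 fold change of -0.15 (standard error 0.27, adjusted p = 0.835). Cdon had control values of 7.84 to 15.7 CPM and mutant values of 0, 13.7 and 3.23 CPM. Boc had control values of 13.3 to 24.9 CPM and mutant values of 0, 9.90 and 23.4 CPM. Both zeros were in mutant 1, the shallowest library, in which 8.55% of genes with a control mean between 10 and 25 CPM were at 0, against 0.459% and 0.890% in the other two mutant libraries. Ihh was not analysed here.

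Of the 18 genes of the cilium and of Smo regulation, 3 were lower and none higher past the study's threshold. Grk2, a kinase that phosphorylates active Smo, measured 42.2, 56.7 and 46.8 CPM in controls and 23.8, 23.0 and 33.0 CPM in mutants. Arl13b, a small GTPase of the ciliary membrane, had 15.7 to 20.3 CPM in control and 4.74 to 9.39 CPM in mutant samples. Rab34, which is needed to build the cilium, had 70.1 to 118 CPM in control and 55.4 to 66.1 CPM in mutant samples. Their log2 fold changes were -0.87, -1.23 and -0.69, with adjusted p-values of 0.123, 0.211 and 0.170, and after the length and GC correction Arl13b alone of the 3 was past the threshold. Without control 1, control 2, control 3 or mutant 3 the change in Arl13b was -1.23, -1.32, -1.13 or -0.98, with an unadjusted p of 0.101, 0.0704, 0.150 or 0.0593. Without control 1, control 3, mutant 1 or mutant 3 that in Rab34 was -0.54, -0.64, -0.65 or -0.69, with an unadjusted p of 0.0953, 0.0836, 0.0676 or 0.0621. Grk2 was at -0.74 without control 2 (unadjusted p = 0.0539). Kif7, the ciliary kinesin that controls Gli processing, had 15.4 to 28.7 CPM in control and 5.89 to 22.4 CPM in mutant samples. It did not pass at -0.78 (adjusted p = 0.504), and without mutant 3 it was -1.43 with an unadjusted p of 0.0279.

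Of the 16 genes that phosphorylate, cleave or degrade Gli proteins, 3 kinases were lower and 1 ubiquitin ligase subunit was higher. Csnk1e, a casein kinase 1, measured 32.0, 46.2 and 41.8 CPM in controls and 10.5, 20.1 and 12.4 CPM in mutants, and fell by 1.47 on the log2 scale (standard error 0.36, adjusted p = 0.0514). Gsk3b, a glycogen synthase kinase, phosphorylates Gli3 for processing together with casein kinase 1 and protein kinase A. It measured 54.6, 93.8 and 84.9 CPM in controls and 36.2, 33.2 and 46.0 CPM in mutants. It fell by 1.01 (standard error 0.28, adjusted p = 0.0775). Both were past the study's threshold under all 14 alternatives, including the length and GC correction. Csnk1d, a second casein kinase 1, fell by 0.74 (adjusted p = 0.128), and was at -0.20 after the correction. Without mutant 1 or mutant 2 it was at -0.63 or -0.69 (unadjusted p = 0.0559 or 0.0520). Csnk1a1, another casein kinase 1 at a higher level, did not pass, at 0.16 (adjusted p = 0.771), with 193 to 237 CPM in control and 242 to 252 CPM in mutant samples. The protein kinase A genes Prkaca, Prkacb and Prkar1a did not pass either, at -0.82, -0.34 and -0.28 (adjusted p = 0.405, 0.579 and 0.608). Cul3, the scaffold of the ligase that acts with Spop on Gli proteins, measured 40.6, 51.5 and 44.8 CPM in controls and 104, 59.8 and 81.0 CPM in mutants. Its log2 fold change was 0.84 (standard error 0.27, adjusted p = 0.116), and it was 0.61 without mutant 1 (unadjusted p = 0.0520) and 0.24 after the correction. Spop itself, the adaptor of that ligase, was at 103 to 121 CPM in control and 70.9 to 136 CPM in mutant samples, with a log2 fold change of -0.05 (adjusted p = 0.956).

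Of the 20 target genes tested, 2 were lower and 1 was higher. Snai1, a transcription factor of mesenchymal cells, measured 58.1, 44.4 and 36.6 CPM in controls and 12.7, 21.9 and 19.1 CPM in mutants. It fell by 1.37 on the log2 scale (standard error 0.34, adjusted p = 0.0506) and was past the study's threshold under all 14 alternatives. Foxd1, a forkhead factor, had 2.50 to 3.17 CPM in control and 0, 0.171 and 0 CPM in mutant samples, with an adjusted p of 0.0690. Of tested genes with a control mean between 2 and 5 CPM, 45.4% were at 0 in mutant 1, 14.9% in mutant 2 and 22.7% in mutant 3. A share of 3.49% was at 0 in all 3, which Foxd1 was not. Bmi1, a Polycomb protein of stem cells, had 19.8 to 26.6 CPM in control and 36.8 to 40.6 CPM in mutant samples. Its log2 fold change of 0.70 (adjusted p = 0.204) moved to 0.20 after the length and GC correction. Without control 1, control 2, control 3 or mutant 3 it was 0.75, 0.57, 0.77 or 0.67, with an unadjusted p of 0.0642, 0.0924, 0.0726 or 0.0644. Bmi1 was past the threshold in 5 of the 14 alternatives, and not with TMM or total counts. The targets with the closest tie to the pathway in many tissues, Gli1 and Hhip, had changes within the spread between samples, and Ptch1 was the one past the threshold.

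**Figure D4:**
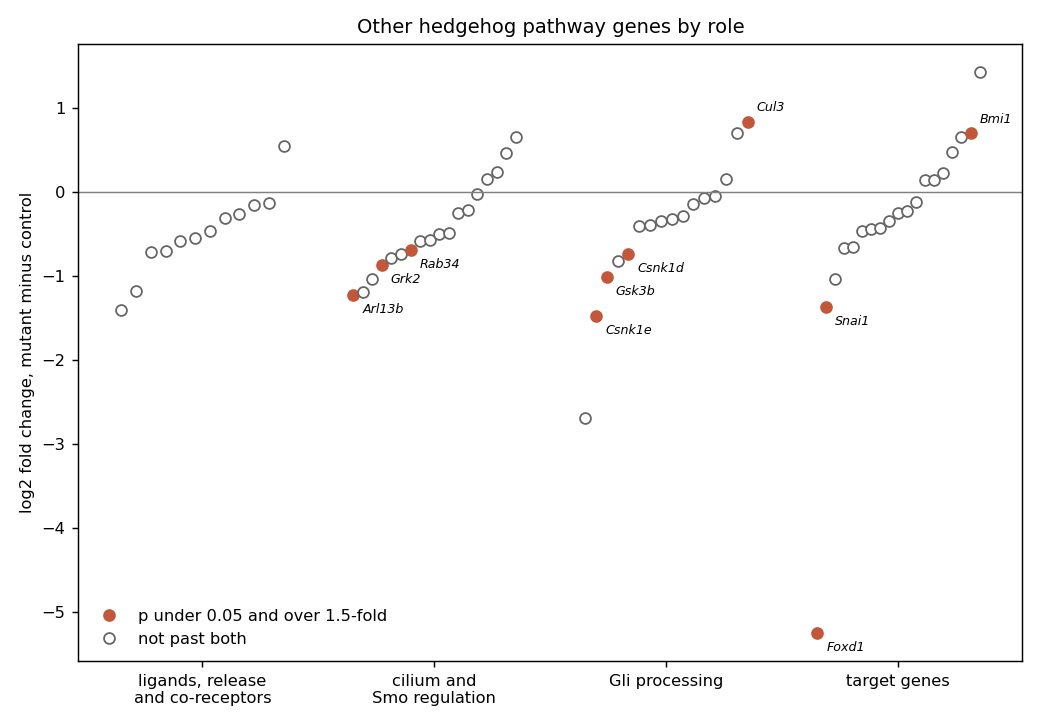
Log2 fold change, mutant minus control, of the tested genes of 4 lists by role, ordered within each list, with filled points for genes past the study's threshold; each gene is drawn once, and Dhh, at 0 in every mutant sample, is not drawn. Most points lie below 0, and Csnk1e (-1.47), Snai1 (-1.37) and Arl13b (-1.23) are filled points on the lower side.

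The genes whose levels followed Gli1, Ptch1 and Shh most closely over the 6 samples were found among 9707 tested genes with a mean of at least 10 CPM, by the root mean square difference of log2(CPM + 1) after centring each gene. Among the nearest to Gli1 were Gpc4 (0.125) and Galc (0.130), and both were lowest in mutant 1 and highest in control 3, as Gli1 was. Gpc4, a glypican, is also 1 of the 13 ligand and co-receptor genes. Nearest to Ptch1 were Angel1 (0.0899), Agap3 (0.0973) and Srebf2 (0.110). Srebf2 measured 115, 162 and 205 CPM in controls and 88.8, 87.1 and 89.6 CPM in mutants. Nearest to Shh were Vwde (0.108), Ttyh2 (0.177) and Cdh1 (0.185). Cdh1, the adhesion molecule of epithelium, measured 104, 195 and 288 CPM in controls and 162, 156 and 175 CPM in mutants. The samples share library depth and tissue composition, and no test was made of these likenesses.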

How the data were processed

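Bulk RNA sequencing of 3 control and 3 mutant incisors was analysed, grouped by the labels. The authors trimmed single reads of 75 bases, aligned them to mm10 with Partek Flow and deposited the estimated counts of each gene, not normalized. The labels' processing notes list TopHat2 2.0.8. The counting model, annotation, strand setting and filter on features are not given in the sources used here, so reads from overlapping or antisense genes cannot be told apart. A deposited table of the authors' comparison, with p-values and fold changes, was not used. Nothing says that samples came from separate animals, so the spread that p-values rest on may be technical.

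Estimated counts were rounded and fitted in edgeR 4.0.16 (R 4.3.3) with upper-quartile scaling, the default filter on low counts (minimum 10, total 15), genotype as the only term, a two-sided quasi-likelihood test and Benjamini-Hochberg adjustment over the 15826 genes tested. Standard errors are approximate (the log2 fold change over the root of its F statistic). Ratios were compared by exact permutation (scipy 1.17.1). Scripts were tested on simulated data.

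Positions and transcript lengths came from GENCODE M21 on GRCm38, with 18637 of 19060 symbols matched. A count of 0 allows 3 counts, 0.256 to 0.655 CPM in mutant and 0.0825 to 0.0874 CPM in control samples (counting error only).

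The 9 genes, the other lists and the tests were chosen with earlier results of these data known. Named from the lists were genes past the study's threshold without overlap between the groups, up to 12 per direction, plus, where measured, Ihh, Dhh, Gas1, Cdon, Boc, Kif7 and Spop, and the 3 genes most alike in pattern to Gli1, Ptch1 and Shh. Some genes that these rules select are not reported here. Evc2, Bcl2, Amtn, Odam, Csnk1a1, Prkaca, Prkacb and Prkar1a were named after their values were seen. Alternatives were TMM scaling, total counts, DESeq2 1.42.0, no filter, each replicate left out, the replicate number as a block, a spline fit on transcript length and GC content to correct both, and thinned controls. The fit without control 2 and mutant 1, which held the most skeletal muscle RNA, was chosen after seeing the data.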

Additional observations from a re-analysis of the deposited data

How the results depend on the processing

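The 3 members that were lower past the study's threshold numbered 1 after the length and GC correction (Sufu) and 1 to 3 with a replicate left out, with 1 (Sufu) without control 3. None was higher under any of the 14 alternatives. Of the other pathway genes, 9 were lower, 15 with total counts, and 7 to 15 with a replicate left out. Over all genes, 1411 were lower, 1170 after the correction, 2335 with total counts, and 776 to 2826 with a replicate left out. The 2 that were higher became 1 with TMM, 0 with total counts, 1 with the replicate block, 1 without the 2 samples with most muscle RNA, and 1 to 2 with a replicate left out. The 2 higher after the correction were other genes, Evc2 and Bcl2. Over all genes, 1726 were higher, 1518 with TMM, 1253 with total counts and 1503 with the replicate block. That number was 1743 without the muscle-rich samples and 1230 to 2110 with a replicate left out. With total counts the median log2 fold change over all genes went from -0.04 to -0.30.

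After the length and GC correction Gli1, Gli2 and Shh changed sign (0.30, 0.17 and 0.16). Shh was -0.44 to 0.28 with a replicate left out. Foxf1, at 0.01, changed sign under 7 alternatives: TMM (-0.077), total counts (-0.25), DESeq2 (-0.014), without the 2 samples with most muscle RNA (-0.050), and 3 fits without a replicate (-0.11 to 0.24 over all 6). Gli2 passed the threshold with total counts, at -0.97. The difference in the Gli1 share was 0.53 percentage points and ran from -2.92 to 4.36 with a replicate left out, and the log2 difference in the Ptch1 to Smo ratio was 0.07 and ran from -0.27 to 0.26. DESeq2 gave Ptch1 an adjusted p of 0.0351. TMM named the same 3 nearest genes for Gli1, Ptch1 and Shh.

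Replicate numbers are shared by the labels, but deviations of same-numbered samples from their group means correlated at 0.047, 0.0094 and 0.055, and the labels tie them by number alone. The study's methods speak of pairs of samples without saying which form a pair. With the replicate block 3 members and 13 other pathway genes were lower, against 1240 of all genes in that fit. The median log2 fold change over all genes was then -0.27. Sufu had -1.97 there (adjusted p = 0.0594), and the unadjusted p of Dhh was 0.0690. The causes of these shifts were not tested. With control counts thinned to the mutants' mean depth, 3 members and 9 other pathway genes were lower, against 1121 of all genes in that fit. Dhh was not among the genes tested there, so these 9 are not the same 9 as in the main fit. A count of 0 allows up to 0.655 CPM in mutant 1, the shallowest library.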

Other observations

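Set against the factors it binds, Sufu had 31.7, 32.0 and 23.7 counts per 100 counts of Gli1, Gli2 and Gli3 together in controls, and 7.97, 12.3 and 12.2 in mutants. This ratio was chosen after the values were seen and is given without a test. It does not depend on the scaling of samples.

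A pair of pathway genes passed the study's threshold only after the length and GC correction. In that fit 1111 of all 15826 genes tested were higher past it. Evc2, a ciliary partner of Smo, moved from -0.03 to 0.66 on the log2 scale (adjusted p = 0.219 with edgeR). Bcl2, a survival gene listed as a target, moved from 0.66 to 0.74 (adjusted p = 0.280 with edgeR). Its unadjusted p in the main edgeR fit was 0.0659.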
